A study of Mus musculus with 12 samples.

Results

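The genes described here are 10 genes of the heat shock response and the unfolded protein response: *Hspa5*, *Hsp90b1*, *Ddit3*, *Atf4*, *Xbp1*, *Hspa1a*, *Hspa1b*, *Hsph1*, *Dnajb1* and *Hsp90aa1*. They were chosen by symbol, each had a row among the 26699 genes of the count files, and all 10 were among the 11927 genes with enough counts to be tested. The libraries came from synovium, the membrane that lines the joint, of adult wild-type C57BL/6 mice. Whole explants spent 4 h in culture, either as controls or exposed to 100 nM of CGRP (calcitonin gene-related peptide, which sensory neurons release). After collagenase digestion, macrophages positive for MHC class II were sorted into a subset without surface CD11c, called IAIE, and a subset with CD11c, called CD11c. The 12 libraries, 3 in each of the 4 groups (IAIE control, IAIE CGRP, CD11c control and CD11c CGRP), were sequenced from total RNA. The labels number the libraries 1 to 3 in each group but do not say whether they came from separate animals or explants, so the p-values measure the spread between these libraries, which may be technical.

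Cells answer misfolded protein by compartment. In the cytosol and nucleus, heat shock factor 1 (HSF1), once released from chaperones, binds heat shock elements and induces the chaperones of the HSP70, HSP110, HSP40 and HSP90 families. In the endoplasmic reticulum (ER), the sensors IRE1, PERK and ATF6 drive the unfolded protein response: IRE1 splices *Xbp1* mRNA, PERK phosphorylates the translation factor eIF2alpha so that ATF4 and its target CHOP (*Ddit3*) are made, and ATF6 induces ER chaperones such as BiP (*Hspa5*) and GRP94 (*Hsp90b1*). Inducible heat shock genes are also known to be switched on by handling and warm enzymatic digestion of tissue. Counts per gene tell neither spliced from unspliced *Xbp1* nor translated from untranslated *Atf4*.

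The files held between 2127191 and 5649698 counts per library, and 3 counts, taken as the lowest number called detected, corresponded to 0.534 to 1.34 CPM (counts scaled to a common library size, the unit of all levels here). The lowest count of any of the 10 genes in any library was 118, for *Ddit3* in IAIE control library 3, so none was limited by detection, although counts and floors describe counting error only. The macrophage markers (9 of 9 genes) had more than 3 counts in every library, with summed levels of 4276 to 11561 CPM. *Itgax*, which encodes CD11c, stood at 6.19 ± 4.76 CPM (mean ± SD, n = 3) in IAIE control and at 237 ± 29.0 CPM in CD11c control, in the direction of the sort. Genes of other cell types were also present, fibroblast markers at 207 to 2204 CPM in sum and dendritic cell markers at 90.5 to 787 CPM, and their levels by group are given beside the results. In bulk RNA, fewer cells of a type and less RNA per cell cannot be told apart, which holds for every comparison here.

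Per kilobase of exon, *Hspa1b* had the highest mean of the 10 genes in every group, and *Hspa1a* came next. In IAIE control they stood at 2147 ± 913 and 1397 ± 638 CPM per kilobase (mean ± SD, n = 3), followed by *Hsp90aa1* at 890.4 ± 244, *Hspa5* at 453 ± 17.3 and *Atf4* at 411 ± 46.4. *Hsph1* (149 ± 46.3 CPM per kilobase), *Hsp90b1* (136 ± 8.61), *Dnajb1* (77.0 ± 31.1), *Ddit3* (37.3 ± 8.07) and *Xbp1* (33.5 ± 2.33) came lower. Several neighbours in this order differed by less than the larger of their SDs, namely *Hspa1b* and *Hspa1a*, *Hspa1a* and *Hsp90aa1*, *Hspa5* and *Atf4*, *Hsph1* and *Hsp90b1*, and *Ddit3* and *Xbp1*. In CD11c control, *Hspa1a* (569 ± 91.6 CPM per kilobase), *Hsp90aa1* (564 ± 66.5) and *Hspa5* (531 ± 32.8) were at about the same level. The same 3 genes lay close together in CD11c CGRP, at 579 ± 245 (*Hspa1a*), 548 ± 18.2 (*Hsp90aa1*) and 559 ± 35.3 (*Hspa5*) CPM per kilobase, where the place of *Hspa1a* rested on library 1. Every one of the 10 lay above the 90th percentile of the 11820 tested genes with a length in every group. Together the 10 genes took 0.899 to 2.64% of all counts of a library.

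In the comparison of CGRP with control, which asks whether the neuropeptide moved these genes in each subset, none of the 10 genes passed the threshold (adjusted p under 0.05, edgeR quasi-likelihood test, Benjamini-Hochberg adjustment over all 11927 genes) in either subset. Over all tested genes, 9.21% passed in IAIE (5.32% higher and 3.89% lower) and 10.9% in CD11c (6.29% higher and 4.59% lower). At an unadjusted p under 0.05, 1 of the 10 passed in IAIE (*Dnajb1*, lower) and 1 in CD11c (*Hsp90b1*, higher). DESeq2 and limma-voom each called 0 of 10 in IAIE and 1 of 10 in CD11c, *Hsp90b1*. The median log2 fold change was 0.05 over the 10 genes in IAIE and -0.01 in CD11c, beside -0.02 and 0.00 over all genes. No gene passed for a difference between the CGRP effects of the subsets (the interaction term, which 0.151% of all genes passed, 0.134% higher and 0.0168% lower). There, 0 of the 10 had an unadjusted p under 0.05, and DESeq2 and limma-voom also called 0.

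In the comparison of the subsets, the calls fell in both directions. Without CGRP, 5 of the 10 passed the edgeR threshold, where 21.2% of all genes did: *Hspa1a*, *Hspa1b*, *Hsph1* and *Hsp90aa1*, 4 of the 5 cytosolic chaperones, were lower in CD11c than in IAIE, and *Xbp1* was higher. Lower calls made up 10.9% of all genes and higher calls 10.2%. With CGRP, 6 of 10 passed, where 16.9% of all genes did: the same 4 cytosolic genes were lower in CD11c, and the ER chaperones *Hspa5* and *Hsp90b1* were higher. Here lower calls made up 8.51% of all genes and higher calls 8.36%. The median log2 difference over the 10 genes was -0.32 without CGRP and -0.23 with it, beside -0.02 and 0.00 over all genes. The CGRP and subset comparisons share libraries and are not independent of each other.

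**Figure D1:**
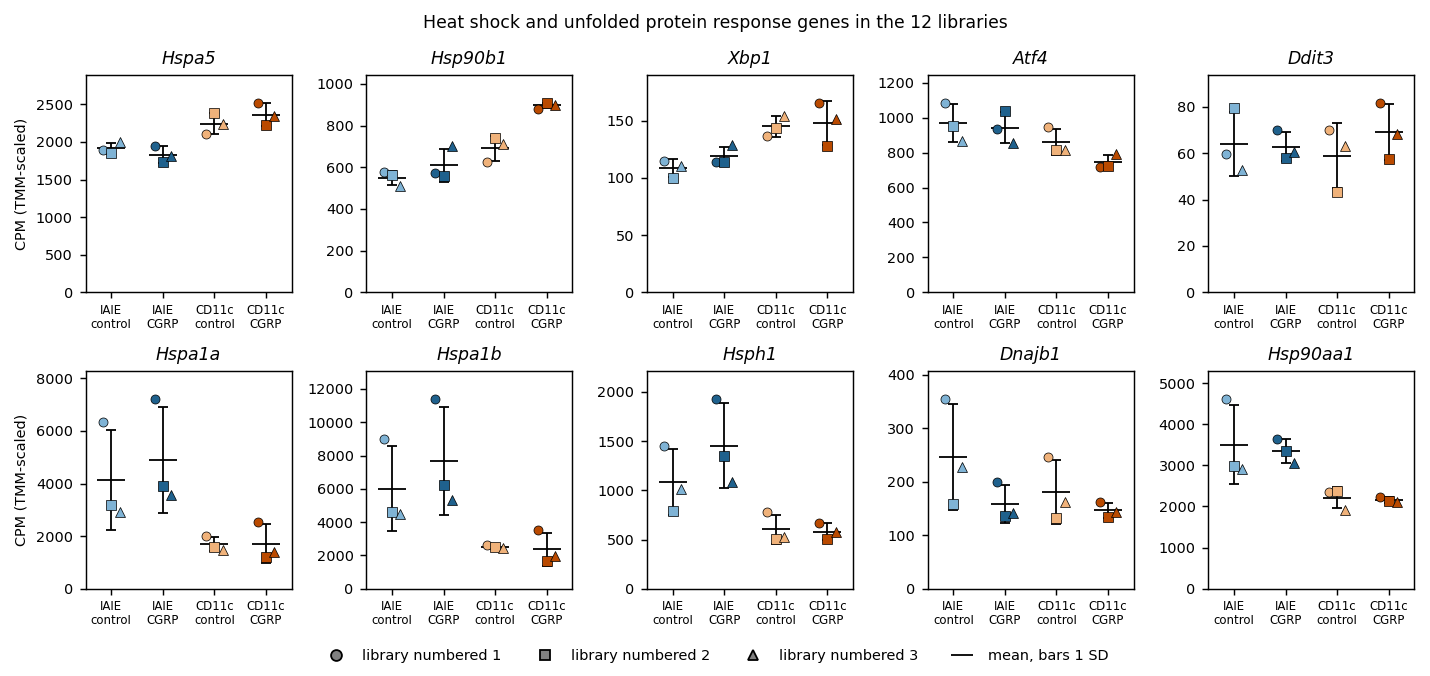
Level of each of the 10 genes in every library, in TMM-scaled CPM on linear axes from 0, by group (IAIE control, IAIE CGRP, CD11c control, CD11c CGRP). Points are single libraries with a shape for each library number, lines are group means and bars 1 SD. The cytosolic genes *Hspa1a*, *Hspa1b*, *Hsph1* and *Hsp90aa1* sit lower in both CD11c groups, and library 1 is the highest of its group for *Hspa1a*, *Hspa1b*, *Hsph1* and *Dnajb1* in all 4 groups.

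The ER chaperones come first. *Hspa5*, on chromosome 2 (34771970 to 34777547, plus strand, GRCm38), encodes BiP, the HSP70 of the ER lumen that also holds the sensors inactive. *Hsp90b1*, on chromosome 10 (86690209 to 86705509, minus strand), encodes GRP94, the HSP90 of the same compartment. Both are classic targets of the ER stress response element (ERSE), so the start-proximal sequences that hold it are shown, from RefSeq on GRCm38.p6, 5′ to 3′ on the gene's strand and ending at position -1 before the start, with ERSE matches in capitals. For *Hspa5* this is chr2:34771940-34772089 (plus strand, from -150), and for *Hsp90b1* chr10:86705445-86705694 (minus strand, from -250). The gene spans above come from another annotation, GENCODE, and reach beyond these RefSeq starts, so part of each sequence lies inside them. That part holds the *Hspa5* match but not the *Hsp90b1* matches.
Hspa5: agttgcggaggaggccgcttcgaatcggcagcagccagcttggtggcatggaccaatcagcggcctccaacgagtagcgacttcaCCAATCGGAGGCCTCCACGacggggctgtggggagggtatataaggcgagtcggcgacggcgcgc
Hsp90b1: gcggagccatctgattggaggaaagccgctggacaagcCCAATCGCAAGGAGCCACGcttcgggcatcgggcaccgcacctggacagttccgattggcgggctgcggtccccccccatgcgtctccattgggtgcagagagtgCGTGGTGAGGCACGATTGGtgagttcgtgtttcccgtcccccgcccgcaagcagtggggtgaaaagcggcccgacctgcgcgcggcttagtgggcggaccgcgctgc
The search was for CCAAT, any 9 bases and then CCACG, on both strands. *Hspa5* had 1 match, at -65, and *Hsp90b1* had 2, at -212 and, on the opposite strand, at -107. Of 32851 promoters, each searched from -250 to beyond the start, 0.119% held a match. A match is a string of letters and not a measured binding site.

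*Hspa5* read 1896, 1855 and 1997 CPM in IAIE control libraries 1, 2 and 3 (mean 1916 ± 73.2, SD, n = 3) and 1950.1, 1736 and 1814 CPM after CGRP (1833 ± 108). In CD11c it read 2109, 2387 and 2236 CPM in control (2244 ± 139) and 2519, 2222 and 2349 CPM after CGRP (2363 ± 149). The control and CGRP libraries overlapped in both subsets, while all CD11c libraries lay above all IAIE libraries of the same treatment. The log2 change with CGRP was -0.06 ± 0.10 (SE) in IAIE (95% interval -0.28 to 0.15, edgeR adjusted p = 0.785) and 0.07 ± 0.10 in CD11c (-0.14 to 0.29, adjusted p = 0.751). Between the subsets, *Hspa5* was higher in CD11c after CGRP by 0.37 ± 0.10 on the log2 scale (1.29-fold, edgeR adjusted p = 0.0179). In control the log2 difference was 0.23 ± 0.10 (1.17-fold, adjusted p = 0.135). The call after CGRP was lost without IAIE CGRP library 2 (adjusted p = 0.0812) or CD11c CGRP library 1 (adjusted p = 0.0726).

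*Hsp90b1* read 576, 561 and 509.9 CPM in IAIE control (549 ± 34.7) and 570.1, 556 and 699.8 CPM in IAIE CGRP (609 ± 79.3). In CD11c it read 625, 741 and 709 CPM in control (692 ± 59.9) and 881, 908 and 899 CPM after CGRP (896 ± 13.9). All 3 CD11c CGRP libraries were above all 3 CD11c controls, and every CD11c library was above every IAIE library of the same treatment. In CD11c the log2 change with CGRP was 0.37 ± 0.12 (95% interval 0.12 to 0.62, 1.29-fold), with an unadjusted edgeR p of 0.00553 and an adjusted p of 0.0505, just short of the threshold. It passed with DESeq2 (adjusted p = 0.0224) and limma-voom (adjusted p = 0.0137), and without IAIE control library 1 (adjusted p = 0.0495) or IAIE CGRP library 3 (adjusted p = 0.0345). It did not pass when any 1 of the compared CD11c libraries was left out, with the highest adjusted p, 0.217, without CD11c control library 1. With the 4 libraries numbered 1 left out its adjusted p was 0.271. In IAIE the log2 change was 0.15 ± 0.12 (-0.10 to 0.40, adjusted p = 0.527), and the difference between the subsets' changes was 0.22 ± 0.17 (adjusted p = 0.789). Between the subsets, *Hsp90b1* was higher in CD11c after CGRP by 0.56 ± 0.12 (1.47-fold, edgeR adjusted p = 0.00231), and in control the log2 difference was 0.33 ± 0.12 (1.26-fold, adjusted p = 0.0533, or 0.0196 by DESeq2 and 0.0238 by limma-voom). That control difference passed without CD11c control library 1 (adjusted p = 0.0386), IAIE CGRP library 3 (0.0339) or CD11c CGRP library 1 (0.0318) or 3 (0.0354). With each library left out in turn, its adjusted p ran from 0.0318 to 0.142. An annotated gene on the opposite strand, *1810014B01Rik*, covers 10.3% of the exon bases of *Hsp90b1*.

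Among the transcription factors, only *Xbp1* had a call, between the subsets in control. *Xbp1* (chromosome 11, 5520659 to 5525893, plus strand) encodes the factor made from IRE1-spliced mRNA. It read 115, 100.3 and 111 CPM in IAIE control (109 ± 7.55), 114, 114 and 128 CPM in IAIE CGRP (119 ± 8.40), 137, 144 and 154 CPM in CD11c control (145 ± 8.95) and 166, 128 and 151 CPM in CD11c CGRP (148 ± 19.1). The subsets did not overlap in control and overlapped after CGRP. In control *Xbp1* was higher in CD11c by 0.42 ± 0.14 on the log2 scale (95% interval 0.13 to 0.70, 1.34-fold, edgeR adjusted p = 0.0338). After CGRP the log2 difference was 0.32 ± 0.13 (1.25-fold, adjusted p = 0.117). The call in control was lost without IAIE control library 2 (adjusted p = 0.108) or 3 (adjusted p = 0.0584) or CD11c control library 3 (adjusted p = 0.0811). The log2 change with CGRP was 0.13 ± 0.14 in IAIE (-0.16 to 0.41, adjusted p = 0.648) and 0.03 ± 0.13 in CD11c (-0.25 to 0.31, adjusted p = 0.935).

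*Atf4* (chromosome 15, 80255184 to 80257541, plus strand) encodes the factor of the integrated stress response, whose protein is controlled mainly at translation. It read 1084, 953 and 867 CPM in IAIE control (968 ± 109), 938, 1036 and 858 CPM in IAIE CGRP (944 ± 89.4), 944, 817 and 816 CPM in CD11c control (859 ± 73.6) and 719, 723 and 794 CPM in CD11c CGRP (745 ± 42.4). All 3 CD11c CGRP libraries lay below all CD11c controls and below all IAIE CGRP libraries. The log2 change with CGRP was -0.20 ± 0.12 in CD11c (95% interval -0.46 to 0.05, edgeR adjusted p = 0.351) and -0.04 ± 0.12 in IAIE (-0.29 to 0.21, adjusted p = 0.904). After CGRP the log2 difference of CD11c from IAIE was -0.34 ± 0.12 (0.790-fold, adjusted p = 0.0595). The labels do not say that replicate numbers pair libraries, though same-numbered IAIE CGRP and CD11c CGRP libraries correlated weakly (0.130 to 0.236). The *Atf4* difference passed in a fit of all 12 libraries blocked on those numbers (adjusted p = 0.0469). It also passed without IAIE control library 1 (adjusted p = 0.0456) or 3 (0.0378) or IAIE CGRP library 3 (0.0428). With each library left out in turn, its adjusted p ran from 0.0378 to 0.239. In control the difference was -0.17 ± 0.12 (adjusted p = 0.353).

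*Ddit3* (chromosome 10, 127290829 to 127293753, plus strand) encodes CHOP, which promotes cell death under lasting ER stress. It was at 59.6, 79.4 and 52.8 CPM in IAIE control (63.9 ± 13.8) and 70.1, 57.8 and 60.7 CPM in IAIE CGRP (62.9 ± 6.44). In CD11c it was at 70.2, 43.3 and 63.3 CPM in control (58.9 ± 14) and 81.7, 57.7 and 68.5 CPM after CGRP (69.3 ± 12). The 4 groups overlapped throughout. The log2 change with CGRP was -0.03 ± 0.20 in IAIE (95% interval -0.45 to 0.39, edgeR adjusted p = 0.957) and 0.24 ± 0.20 in CD11c (-0.18 to 0.66, adjusted p = 0.545). The subset difference was -0.13 ± 0.20 in control (adjusted p = 0.710) and 0.14 ± 0.20 after CGRP (adjusted p = 0.713).

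The cytosolic chaperones, *Dnajb1* aside, differed most between the subsets. *Hspa1a* (chromosome 17, 34969190 to 34972156, minus strand) and *Hspa1b* (chromosome 17, 34956436 to 34959238, minus strand) are neighbours that encode near-identical stress-inducible HSP70 proteins. *Hsph1* (chromosome 5, 149614287 to 149636376, minus strand) encodes HSP105, an HSP110 that exchanges nucleotide on HSP70. All 3 are HSF1 targets, and the promoter sequences are shown because these genes moved together. They run from -150 to -1 on the gene's strand (RefSeq, GRCm38.p6), at chr17:34972157-34972306 for *Hspa1a*, chr17:34959239-34959388 for *Hspa1b* and chr5:149636337-149636486 for *Hsph1*, with a match to a heat shock element of 2 units in capitals. For *Hsph1*, the part that holds the match lies inside the GENCODE span given above, which reaches beyond the RefSeq start.
Hspa1a: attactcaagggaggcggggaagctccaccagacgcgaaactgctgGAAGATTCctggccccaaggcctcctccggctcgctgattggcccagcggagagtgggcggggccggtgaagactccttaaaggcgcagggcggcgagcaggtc
Hspa1b: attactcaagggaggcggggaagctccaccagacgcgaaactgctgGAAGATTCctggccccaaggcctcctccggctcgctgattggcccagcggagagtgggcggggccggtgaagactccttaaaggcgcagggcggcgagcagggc
Hsph1: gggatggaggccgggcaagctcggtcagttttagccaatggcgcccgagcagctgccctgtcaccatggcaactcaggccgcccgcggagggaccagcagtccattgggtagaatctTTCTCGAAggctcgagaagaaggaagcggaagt
The 2-unit element was searched as GAANNTTC or TTCNNGAA, which 15.1% of all promoters held, and the 3-unit element, which overlaps it, as GAA, TTC and GAA, or TTC, GAA and TTC, each unit 2 bases after the one before it, which 0.603% held. *Hspa1a* and *Hspa1b* had a 2-unit match at -104. *Hsph1* had a 2-unit match at -33 and a 3-unit match at 36 after the start. Over the 250 bases before the start, *Hspa1a* and *Hspa1b* were alike at 247 and differed at 3, counted from 1 at the 5′ end and with the *Hspa1a* base first (C44T, T47C and T249G). *Hsp90aa1* had no promoter entry to search. The searched motifs also included ERSE-II (ATTGG, any base and then CCACG, 0.0365% of promoters), UPRE (TGACGTGG, 0.676%), CRE (TGACGTCA, 1.79%) and the ATF4 composite site (TGATGNAA, 3.97%). The window searched began 250 bases before the start and ran past it. None of the motifs had a match in this window of *Ddit3*, *Atf4*, *Xbp1* or *Dnajb1*.

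*Hspa1a* read 6323, 3197 and 2912 CPM in IAIE control (4144 ± 1893) and 7199, 3919.5 and 3556 CPM in IAIE CGRP (4891 ± 2007). In CD11c it read 1998, 1585 and 1485 CPM in control (1689 ± 272) and 2549.5, 1196 and 1411 CPM after CGRP (1719 ± 727). Library 1 was the highest in all 4 groups, and even so no CD11c library reached the lowest IAIE library of the same treatment. The log2 difference of CD11c from IAIE was -1.30 ± 0.30 in control (95% interval -1.92 to -0.67, 0.407-fold, edgeR adjusted p = 0.00408) and -1.51 ± 0.30 after CGRP (-2.14 to -0.88, 0.352-fold, adjusted p = 0.00134). The log2 change with CGRP was 0.24 ± 0.30 in IAIE (-0.38 to 0.86, adjusted p = 0.707) and 0.03 ± 0.30 in CD11c (-0.59 to 0.65, adjusted p = 0.978).

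*Hspa1b* followed the same pattern, at 8970.4, 4622 and 4462 CPM in IAIE control (6018 ± 2558) and 11378, 6255 and 5347 CPM in IAIE CGRP (7659.6 ± 3252). In CD11c it was at 2655, 2497 and 2430.1 CPM in control (2528 ± 116) and 3512, 1643 and 1978 CPM after CGRP (2378 ± 996). The subsets did not overlap under either treatment. *Hspa1b* was lower in CD11c by -1.25 ± 0.29 in control (0.420-fold, edgeR adjusted p = 0.00400) and by -1.69 ± 0.29 after CGRP (0.311-fold, adjusted p = 0.000350). With CGRP the log2 change was 0.35 ± 0.29 in IAIE (95% interval -0.25 to 0.95, adjusted p = 0.539) and -0.09 ± 0.29 in CD11c (-0.69 to 0.51, adjusted p = 0.909). Of the 75-base words in the exons of *Hspa1a*, 61.7% also occur in other annotated genes, and 52.7% occur in *Hspa1b*. *Gm20481* lies on the opposite strand over 19.0% of the exon bases of *Hspa1a*, so how reads were shared between the genes is uncertain. With the counts of *Hspa1a* and *Hspa1b* summed, the log2 subset difference was -1.27 ± 0.29 in control (adjusted p = 0.0038) and -1.62 ± 0.29 after CGRP (adjusted p = 0.000563).

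**Figure D2:**
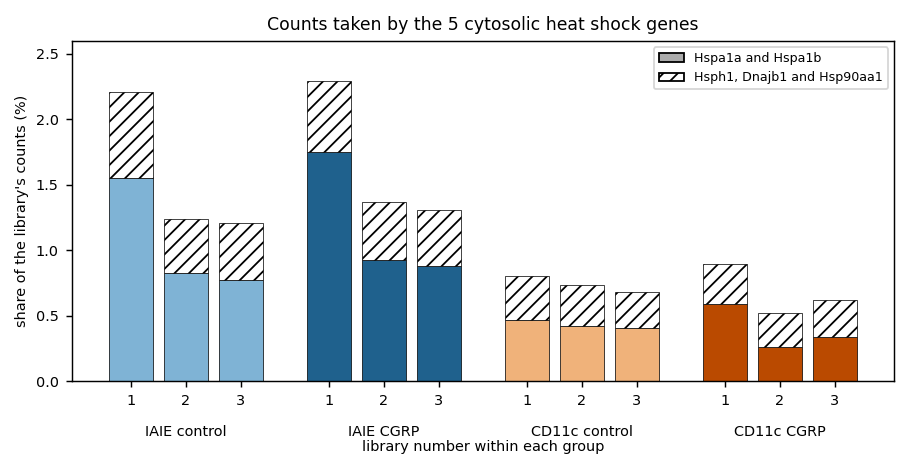
Percent of all counts of each library (stacked bars) taken by *Hspa1a* and *Hspa1b* together (solid) and by *Hsph1*, *Dnajb1* and *Hsp90aa1* (hatched), by group and library number. *Hspa1a* and *Hspa1b* took 0.774 to 1.75% of counts in IAIE libraries and 0.265 to 0.593% in CD11c libraries, with library 1 the highest bar of each group.

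*Hsph1* read 1451, 789.8 and 1009 CPM in IAIE control (1083 ± 337) and 1925, 1352 and 1081 CPM in IAIE CGRP (1452 ± 431). In CD11c it read 777, 507 and 524 CPM in control (603 ± 151) and 670.3, 501 and 573 CPM after CGRP (581 ± 85.0). The subsets did not overlap, although CD11c control library 1 came close to the lowest IAIE control library. *Hsph1* was lower in CD11c by -0.85 ± 0.22 in control (0.556-fold, edgeR adjusted p = 0.00940) and by -1.32 ± 0.22 after CGRP (0.40-fold, adjusted p = 0.000258). The control call was lost without IAIE control library 1 (adjusted p = 0.0770) or CD11c control library 2 (0.0717) or 3 (0.0648). With CGRP the log2 change was 0.42 ± 0.22 in IAIE (95% interval -0.04 to 0.88, adjusted p = 0.275) and -0.05 ± 0.22 in CD11c (-0.51 to 0.41, adjusted p = 0.936).

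*Hsp90aa1* (chromosome 12, 110690605 to 110702728, minus strand) encodes the inducible cytosolic HSP90alpha. It read 4605, 2995 and 2901 CPM in IAIE control (3500.2 ± 958) and 3647, 3358 and 3065 CPM in IAIE CGRP (3357 ± 291). In CD11c it read 2360.0, 2372 and 1914 CPM in control (2215 ± 261) and 2233, 2126 and 2097 CPM after CGRP (2152 ± 71.7). The subsets did not overlap under either treatment. The log2 difference of CD11c from IAIE was -0.66 ± 0.15 in control (0.633-fold, edgeR adjusted p = 0.00351) and -0.64 ± 0.15 after CGRP (0.641-fold, adjusted p = 0.00483). The log2 change with CGRP was -0.06 ± 0.15 in IAIE (95% interval -0.37 to 0.25, adjusted p = 0.872) and -0.04 ± 0.15 in CD11c (-0.35 to 0.27, adjusted p = 0.920). Other annotated genes, chiefly the pseudogene *Gm12346*, share 42.8% of its 75-base words, so how many of its reads were lost or shared is uncertain.

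*Dnajb1* (chromosome 8, 83608193 to 83612653, plus strand) encodes the HSP40 that hands clients to HSP70 and helps switch HSF1 off. Its levels were 354, 158 and 228 CPM in IAIE control (247 ± 99.6), 199.8, 136 and 142 CPM in IAIE CGRP (159 ± 35.4), 247, 133 and 162 CPM in CD11c control (181 ± 59.6) and 162, 134 and 143 CPM in CD11c CGRP (147 ± 14.3). The groups overlapped in every comparison, and library 1 was the highest of each. The log2 subset difference was -0.46 ± 0.25 in control (edgeR adjusted p = 0.215) and -0.12 ± 0.25 after CGRP (adjusted p = 0.823). With CGRP the log2 change was -0.63 ± 0.25 in IAIE (95% interval -1.15 to -0.12, 0.644-fold), with an unadjusted p of 0.0186 and an adjusted p of 0.128, and -0.29 ± 0.25 in CD11c (-0.81 to 0.22, adjusted p = 0.557). Without IAIE control library 2, the IAIE change passed (adjusted p = 0.0342). With each library left out in turn, the IAIE change ranged from -0.85 to -0.27 on the log2 scale (adjusted p 0.0342 to 0.580).

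**Figure D3:**
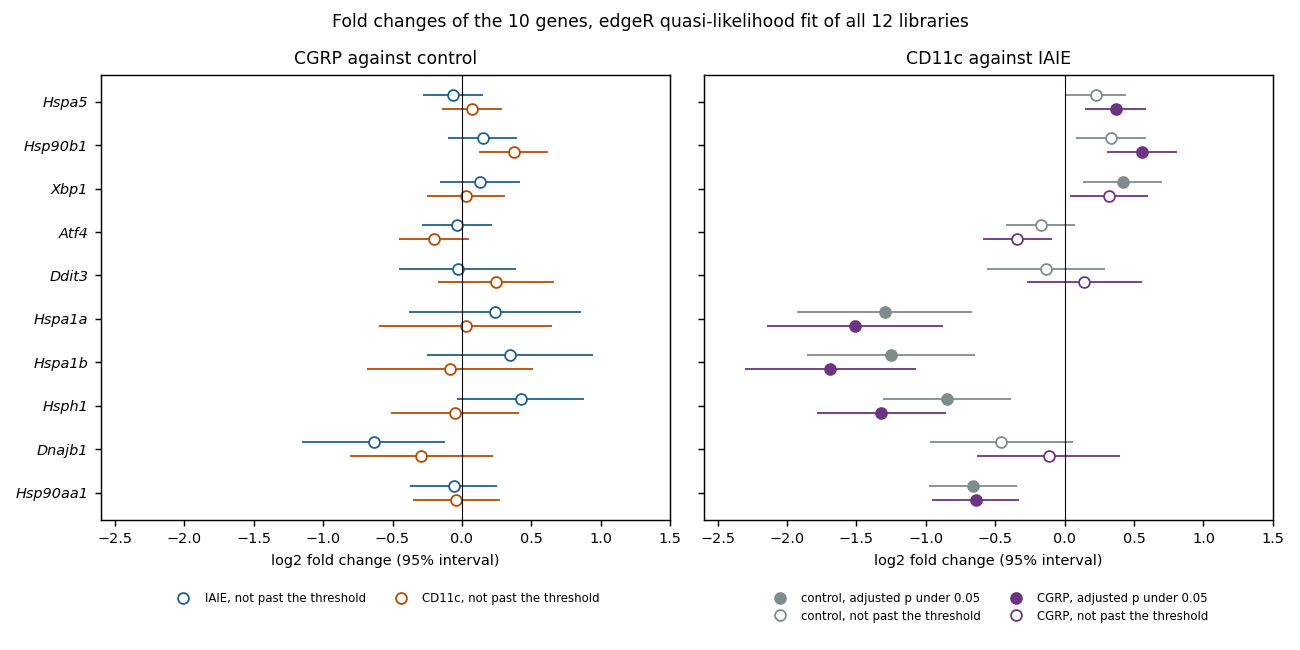
Log2 fold change of each of the 10 genes, with 95% intervals, for CGRP against control in IAIE and in CD11c and for CD11c against IAIE in control and after CGRP (edgeR, 3 libraries per group). Filled points passed an adjusted p of 0.05. No point passed for CGRP, while *Hspa1a*, *Hspa1b*, *Hsph1* and *Hsp90aa1* lie below 0 in both subset comparisons.

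The libraries numbered 1 stood apart for 4 of the 10 genes. *Hspa1a*, *Hspa1b*, *Hsph1* and *Dnajb1* were highest in library 1 in all 4 groups, a pattern that 2.51% of all tested genes showed (299 of 11927). Relative to the mean of the other 2 libraries of its group, library 1 held 1.30 to 2.07 times as much *Hspa1a* (lowest to highest over the 4 groups), 1.08 to 1.97 times as much *Hspa1b*, 1.25 to 1.61 times as much *Hsph1* and 1.17 to 1.84 times as much *Dnajb1*. For *Hsp90aa1* the range was 1.06 to 1.56. The ER chaperones lay on both sides of 1, with *Hspa5* at 0.913 to 1.10 and *Hsp90b1* at 0.862 to 1.08. On the other lists the pattern was held by 1 of 36 cytosolic heat shock genes and HSF1 targets (*Bag3*, an HSP70 co-chaperone), 1 of 27 genes of the integrated stress response (*Atf3*), 2 of 12 mitochondrial chaperones and proteases (the chaperonins *Hspd1* and *Hspe1*) and 2 of 9 immediate early genes (*Jun* and *Egr1*). The first of these shares, 2.78%, is near that of all genes. It was held by 0 of 23 ER chaperones and folding enzymes and 0 of 20 genes of the UPR sensors, ER-associated degradation and ER export.

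With the 4 libraries numbered 1 left out, which leaves 2 libraries per group, the 4 cytosolic genes passed in both subset comparisons, and 4 and 5 of the 10 genes passed in all, where 13.7% and 11.4% of all 12241 genes tested in that fit did. For CGRP, 0 of the 10 passed in IAIE and 1 in CD11c, where 5.85% and 6.72% of all genes did. In control the log2 differences were -0.99 for *Hspa1a* (edgeR adjusted p = 0.000139), -0.88 for *Hspa1b* (0.000350), -0.79 for *Hsph1* (0.00339) and -0.46 for *Hsp90aa1* (0.0287). After CGRP they were -1.53, -1.69, -1.19 and -0.61 in the same order of genes. This fit was added after library 1 was seen to be the highest for *Hspa1a*, *Hspa1b* and *Hsph1*. Leaving out the highest library of each group lowers the spread of these genes by itself. Their smaller p-values are therefore no added support for the calls. The calls of *Xbp1* in control (adjusted p = 0.0565) and of *Hspa5* after CGRP (adjusted p = 0.0706) were lost, and *Hspa1b* was called lower with CGRP in CD11c (-0.45, adjusted p = 0.0474). The summed level of 9 immediate early genes, which dissociation of tissue can induce, was 5193 to 6008 CPM in IAIE control, 3685 to 4347 in IAIE CGRP, 3587 to 4050 in CD11c control and 2862 to 3237 in CD11c CGRP. The sums thus did not overlap between the subsets under either treatment, nor between control and CGRP within either subset. Gene by gene, 3 of the 9 were called lower in CD11c in control (33.3%, beside 21.2% of all genes, median log2 difference -0.25). After CGRP 2 were lower and 1 (*Nr4a1*) higher (33.3%, beside 16.9%, median -0.14). With CGRP 6 fell in IAIE and 4 in CD11c, and none rose (66.7% and 44.4%, beside 9.21% and 10.9%). Macrophage markers summed to 8481 to 11561 CPM in IAIE control and 6279 to 8160 in CD11c control, dendritic cell markers to 109 to 178 and 641 to 717, fibroblast markers to 359 to 1557 and 207 to 277, and B and plasma cell markers to 171 to 291 and 37.9 to 51.9. After CGRP they summed in IAIE and CD11c to 7401 to 8985 and 4276 to 5447 (macrophage), 90.5 to 117 and 688 to 787 (dendritic cell), 570 to 2204 and 461 to 768 (fibroblast) and 77.3 to 122 and 6.41 to 13.4 CPM (B and plasma cell, of which 1 of 8 genes was at 0 in every CD11c CGRP library). Of 9 macrophage markers, 8 were called lower in CD11c in control and 7 after CGRP, none higher, with median log2 differences of -1.34 and -1.22. Of 7 tested dendritic cell markers, 5 and 4 were called higher, none lower, with medians of 2.49 and 1.20. These are 88.9% and 77.8% of the macrophage list and 71.4% and 57.1% of the dendritic cell list, beside 21.2% and 16.9% of all genes. Mitochondrial rRNA took at least 9.32% of counts in each IAIE control library and 7.12 to 8.27% in CD11c control, and at least 10% and 8.15 to 9.37% after CGRP, so its share was higher in IAIE without overlap. The part of these genes and of the rRNA share in the subset differences was not tested.

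The other genes of these pathways were counted on lists that leave out the 10 genes. Among 23 ER chaperones and folding enzymes, 4 passed for CGRP in IAIE and 6 in CD11c, all higher, with median log2 changes of 0.05 and 0.19. These are 17.4% and 26.1% of the list, where 9.21% and 10.9% of all genes passed in either direction. In CD11c the fibroblast markers moved with them, from 207 to 277 CPM in sum in control to 461 to 768 CPM after CGRP without overlap, and 3 of 7 tested (*Col3a1*, *Dcn* and *Pdpn*) were called higher, with a list median of 2.35 on the log2 scale. In IAIE the fibroblast sums overlapped between control and CGRP. There, 3 of 7 tested markers (*Col1a1*, *Col1a2* and *Col3a1*) were called lower and 1 (*Pdpn*) higher, with a list median of -2.08. These calls are 57.1% of the list in IAIE and 42.9% in CD11c. The part of the fibroblast markers in these changes was not tested. *Ero1a*, the oxidase that drives disulfide formation in the ER, rose from 68.0 ± 26.5 to 259 ± 23.2 CPM in IAIE and from 119 ± 11.4 to 563 ± 89.9 CPM in CD11c. Its log2 change was 1.93 ± 0.21 (edgeR adjusted p = 8.79e-06) and 2.24 ± 0.21 (adjusted p = 1.32e-06). *P4hb*, protein disulfide isomerase, rose by 0.76 ± 0.16 in IAIE (adjusted p = 0.00319) and by 1.02 ± 0.16 in CD11c (adjusted p = 0.000168). *Pdia4*, another isomerase, rose by 0.70 ± 0.14 in IAIE (adjusted p = 0.0033, or 0.0633 without the libraries numbered 1). It was also called higher in CD11c, from 163 ± 3.94 to 243 ± 23.8 CPM. *Dnajc10*, an ER reductase, rose by 0.92 ± 0.21 in CD11c (adjusted p = 0.00614). In IAIE its log2 change was 0.67 ± 0.22, which did not pass (adjusted p = 0.0609). The other genes called in either subset were *Hspa13* and *Hyou1*, chaperones of the HSP70 and HSP110 kind. *Pdia6*, also an isomerase, did not pass (-0.02, adjusted p = 0.967, in IAIE and 0.27, adjusted p = 0.260, in CD11c). Between the subsets, 9 of the 23 were higher and 1 (*Dnajb9*) lower in CD11c in control, and 10 were higher after CGRP, with medians of 0.39 and 0.40. Both counts are 43.5% of the list, where 21.2% and 16.9% of all genes passed. These counts leaned on single libraries: in control 3 passed without IAIE control library 1 or CD11c control library 2 and 6 without IAIE control library 2 or 3 or CD11c control library 1, and after CGRP 4 passed without IAIE CGRP library 1 or 2 and 5 without CD11c CGRP library 3. With the libraries numbered 1 left out, 4 and 3 passed for CGRP in IAIE and CD11c and 4 and 5 for the subset without and with CGRP. *Hyou1*, the ER HSP110 that works with BiP, was higher in CD11c by 0.63 ± 0.18 in control (adjusted p = 0.0137, or 0.0733 without IAIE control library 1) and by 0.84 ± 0.17 after CGRP (adjusted p = 0.00162). *Pdia6* was higher by 0.60 ± 0.14 after CGRP (adjusted p = 0.00368).

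Of 20 tested genes of the UPR sensors, ER-associated degradation and ER export, 2 rose and 1 fell with CGRP in IAIE (15% of the list, beside 9.21% of all genes). In CD11c edgeR called 0 of them, with 9 at an unadjusted p under 0.05, DESeq2 called 0 and limma-voom 2. *Herpud1*, which helps clear misfolded ER proteins, fell with CGRP in IAIE from 88.8 ± 19.0 to 49.5 ± 9.92 CPM, by -0.84 ± 0.18 on the log2 scale (edgeR adjusted p = 0.00555, or 0.0535 without IAIE control library 2). In CD11c it was at 140.4 ± 15.5 and 120.2 ± 16.8 CPM (-0.23 ± 0.18, adjusted p = 0.520). In control 6 were higher and 2 lower in CD11c than in IAIE, and after CGRP 5 were higher and 1 lower (40% and 30% of the list, beside 21.2% and 16.9% of all genes). Without the libraries numbered 1, 2 passed in each of these subset comparisons and 2 for CGRP in IAIE. The count of 3 for CGRP in IAIE was 1 without IAIE control library 1 or IAIE CGRP library 3, the count of 0 in CD11c was 1 without CD11c control library 2, and the count of 6 between subsets after CGRP was 3 without IAIE CGRP library 1 or CD11c CGRP library 1 and 2 without IAIE CGRP library 2. *Ern1*, which encodes IRE1alpha, was lower in CD11c, at 158 ± 13.7 against 336 ± 77.7 CPM in control (-1.09 ± 0.15, adjusted p = 2.68e-05) and 149 ± 8.67 against 258 ± 14.5 CPM after CGRP (-0.79 ± 0.15, adjusted p = 0.000636). *Eif2ak3*, which encodes PERK, was lower in CD11c in control (-1.05 ± 0.27, adjusted p = 0.00951, or 0.0560 without IAIE control library 1), and after CGRP the difference was -0.46 ± 0.26 (adjusted p = 0.276). *Atf6* stood at 155 ± 11.6 and 117 ± 7.67 CPM without and with CGRP in IAIE (-0.40 ± 0.13, adjusted p = 0.0605) and at 137 ± 9.43 and 112 ± 8.92 CPM in CD11c (-0.29 ± 0.13, adjusted p = 0.180). So 2 of the 3 sensor genes were lower in CD11c control, where *Xbp1* was higher.

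Of 27 tested genes of the integrated stress response, which ATF4 leads, 6 rose with CGRP in IAIE and 4 in CD11c, and none fell, with median log2 changes of 0.28 and 0.20. These are 22.2% and 14.8% of the list, beside 9.21% and 10.9% of all genes. *Slc7a11*, the cystine importer and a target of ATF4, rose in IAIE by 1.12 ± 0.18 (edgeR adjusted p = 0.000512) and *Sars*, seryl-tRNA synthetase, by 1.09 ± 0.15 (adjusted p = 0.000124). Both were also called higher in CD11c, *Slc7a11* from 684 ± 118 to 1138 ± 177 CPM and *Sars* from 76.1 ± 10.7 to 118 ± 15.7 CPM. With 1 library left out, their adjusted p in CD11c reached 0.0657 and 0.0758. *Eif2ak2*, the interferon-inducible eIF2alpha kinase PKR, rose in both subsets, by 1.85 ± 0.36 in IAIE (adjusted p = 0.00223) and by 2.37 ± 0.37 in CD11c (adjusted p = 0.00021). *Atf4* itself did not pass in either subset. Between the subsets, 7 were higher and 4 lower in CD11c in control, and 4 higher and 2 lower after CGRP (40.7% and 22.2%, beside 21.2% and 16.9% of all genes). Of the 4 called for CGRP in CD11c, 2 were left without CD11c control library 2 or CD11c CGRP library 1. The 11 in control became 7 without IAIE control library 1 or CD11c control library 2, and the 6 after CGRP became 3 without IAIE CGRP library 1 or CD11c CGRP library 1 or 2, 2 without CD11c CGRP library 3 and 1 without IAIE CGRP library 2. With the libraries numbered 1 left out, 6 and 2 passed for CGRP and 8 and 5 for the subset. *Trib3*, a pseudokinase induced by ATF4 and CHOP, was higher in CD11c control by 1.49 ± 0.27 (adjusted p = 0.000472), and *Mthfd2*, a mitochondrial folate enzyme, by 0.83 ± 0.18 (adjusted p = 0.00212). *Atf3*, a stress factor that is also an immediate early gene, was lower in CD11c control by -0.78 ± 0.17 (adjusted p = 0.0031).

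Of 36 other cytosolic heat shock genes and HSF1 targets, 2 rose and 1 fell with CGRP in IAIE, and 1 rose and 3 fell in CD11c. At 8.33% and 11.1% of the list, these counts are near the 9.21% and 10.9% of all genes. *Fkbp5*, a co-chaperone of HSP90 and a glucocorticoid target, fell in IAIE by -1.53 ± 0.32 (edgeR adjusted p = 0.00386). Between the subsets, 3 were higher and 6 lower in CD11c in control, and 1 higher and 3 lower after CGRP, with medians of -0.10 and -0.08 (25% and 11.1% of the list passed, beside 21.2% and 16.9% of all genes). The 4 for CGRP in CD11c became 1 without CD11c control library 3, the 9 in control became 5 without CD11c control library 2 and 3 without CD11c control library 3, and the 4 after CGRP became 2 without IAIE CGRP library 1 or CD11c CGRP library 2 or 3. With the libraries numbered 1 left out, 2 and 1 passed for CGRP and 5 and 3 for the subset. *Bag3* was lower in CD11c under both treatments, at 345 ± 42.5 against 528 ± 56.2 CPM in control (-0.62 ± 0.13, adjusted p = 0.00206) and 353 ± 29.0 against 523 ± 53.2 CPM after CGRP (-0.56 ± 0.13, adjusted p = 0.00432). *Hspa8*, the constitutive HSP70, was at 6377 ± 2069.5 CPM in IAIE control and 4572 ± 548 CPM in CD11c control, a log2 difference of -0.48 ± 0.16 (adjusted p = 0.0407) that was lost, with an adjusted p of 0.0532 to 0.362, without IAIE control library 1, CD11c control library 2 or 3, IAIE CGRP library 1 or 2, or CD11c CGRP library 1 or 3. *Cdc37*, which loads kinases onto HSP90, went the other way, higher in CD11c control by 0.72 ± 0.12 (adjusted p = 0.000344), and so did the chaperonin subunit *Cct5* by 0.51 ± 0.13 (adjusted p = 0.00985). *Hsf1* was at 13.7 to 18.9 CPM (group means), with no call in any comparison. For the interaction, edgeR called 0 genes on each of these 4 lists (0, 1, 2 and 3 at an unadjusted p under 0.05, in the order given), and DESeq2 and limma-voom also called 0.

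**Figure D4:**
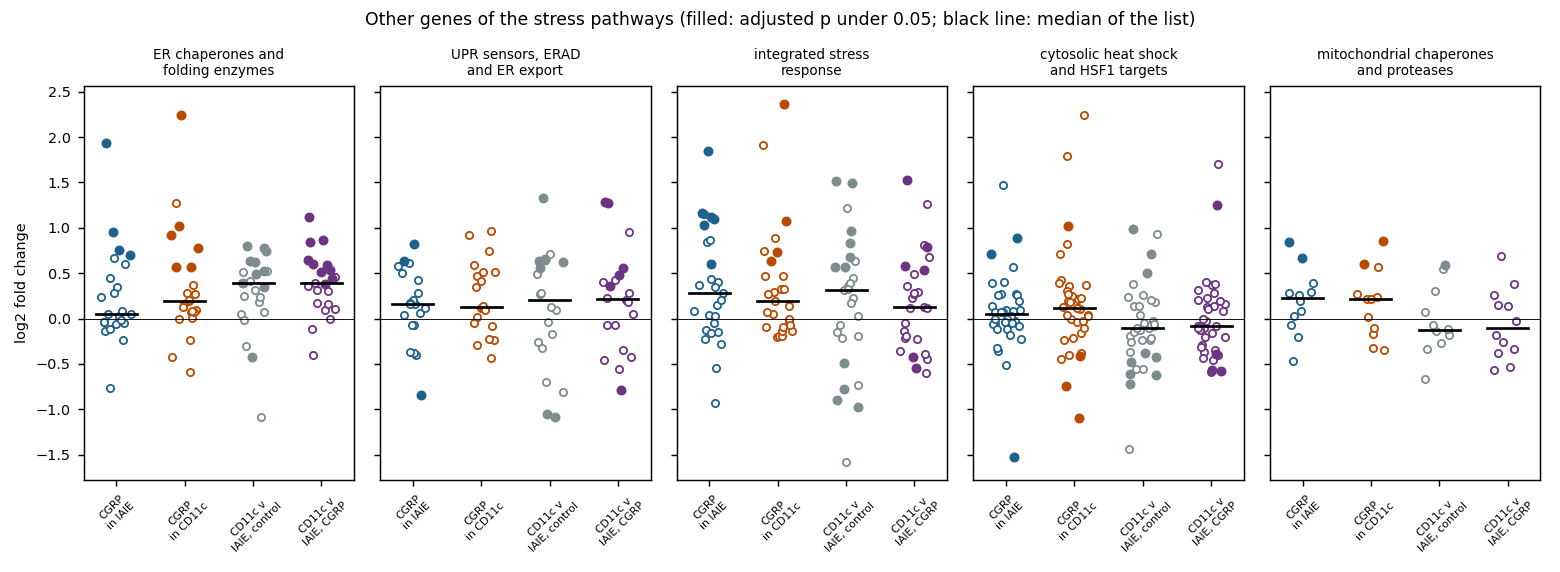
Log2 fold change of every tested gene on each pathway list, by comparison (edgeR), with genes past an adjusted p of 0.05 filled and the list median as a bar. For the 23 ER chaperones and folding enzymes the median is 0.39 and 0.40 in the subset comparisons, and for the 36 cytosolic genes -0.10 and -0.08.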

How the data were processed

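RNA-seq counts of 12 libraries (3 for each of 4 groups) were analysed. The authors deposited whole-number counts per gene, not normalized. Per the labels and methods they used a stranded total RNA kit, trimmed reads with Trim Galore, checked them with FastQC, aligned them to mm10 with HISAT2 and counted them with featureCounts. Their versions, the annotation and the strand setting are not given in the sources used here, so whether reads of overlapping antisense genes were told apart is not known. A combined table repeated the same 12 libraries, and 6 other columns in it were not used.

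Groups came from the labels. Genes were kept by filterByExpr (minimum count 10, minimum total 15), which left 11927 of 26699, scaled by TMM and tested with the edgeR 4.0.16 quasi-likelihood test (R 4.3.3) in 1 fit of all 12 libraries, with Benjamini-Hochberg adjustment over all tested genes and a threshold of 0.05. All adjusted p-values are edgeR's unless another tool is named. Levels are TMM-scaled CPM, and intervals are 95% intervals. The script was tested on simulated data. Total counts of 2127191 to 5649698 per library set the counting precision.

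The 10 genes, the pathway and marker lists and the tests were chosen with earlier results of these data known. From each list and comparison the rule named up to 3 genes each way with the smallest p, besides a few fixed genes. *Hspa13*, *Hspd1*, *Hspe1*, *Jun* and *Egr1* were named after their values were seen. Lists matched the files by symbol or synonym, and *Stc2*, *Cd3e*, *Cd3g*, *Nkg7* and *Ncr1* were not analysed here. Positions and shared 75-base words came from GENCODE on GRCm38, and promoters from RefSeq on GRCm38.p6.

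Whether replicate numbers pair libraries was checked by correlating deviations from the group means over 7618 genes. For IAIE CGRP with CD11c CGRP the same numbers correlated at 0.236, 0.130 and 0.142, so a pairing there is possible but not established. Libraries of unlike numbers were not compared. The main fit used no block, and the replicate block covered all 12 libraries. The other pairs of groups had at least 1 value of 0.1 or lower. Alternatives were RLE and upper-quartile scaling, 2 other filters, replicate blocks, a surrogate variable (sva 3.50.0), DESeq2 1.42.0, limma-voom (limma 3.58.1), the compared libraries alone, a threshold of 0.1, summing *Hspa1a* and *Hspa1b* and leaving out each library. Leaving out the 4 libraries numbered 1 was added after the data were seen.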

Additional observations from a re-analysis of the deposited data

How the results depend on the processing

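The 4 cytosolic genes *Hspa1a*, *Hspa1b*, *Hsph1* and *Hsp90aa1* were lower in CD11c under every alternative run. Over the 10 genes and 5 comparisons, 480 of 530 values kept direction and side of the threshold, and 550 of 600 with 1 library left out. No called difference turned direction. None of the 10 genes was limited by detection, and interval width did not follow it (*Hspa1a* had far more counts than *Ddit3* and the wider interval for CGRP), and the cause of the shifts below was not tested. The number of the 10 genes called for CGRP in IAIE (0) became 3 when no filter but a single count was set, 2 with the replicate block (*Hsph1*, adjusted p = 0.0358, and *Dnajb1*, 0.0139) and 0 to 1 with 1 library left out (1 without IAIE control library 2). In CD11c (0) it was 1 with a minimum of 10 counts in every library, with the replicate block (*Hsp90b1*, 0.0405), DESeq2, limma-voom, the compared libraries alone (*Hsp90b1* in each), the libraries numbered 1 left out (*Hspa1b*) and a threshold of 0.1, and 0 to 1 with 1 library left out. Between subsets in control it was 3 to 6 with 1 library left out (3 without CD11c control library 3). The replicate block called 7 in each subset comparison. It otherwise changed only the calls of *Dnajb1* and *Hsp90b1* in control (0.0422 and 0.0491) and *Atf4* after CGRP.

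Over all genes, 18 interaction calls became 171 (every gene), 5 (minimum of 10 counts), 36 (replicate block), 52 (replicate block within treatment), 97 (DESeq2), 2 (limma-voom), 42 (threshold of 0.1) and 6 to 29 with 1 library left out. Leaving out the libraries numbered 1 gave 716 calls of 1099 for CGRP in IAIE, 822 of 1298 in CD11c and 1682 of 2526 between subsets in control, and leaving out IAIE CGRP library 2 gave 722 in IAIE.

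The values that turned direction were log2 changes that had not passed the threshold. With every gene tested, CGRP in IAIE gave 0.0119 for *Hspa5*, 0.0426 for *Ddit3*, 0.0395 for *Atf4*, 0.0175 for *Hsp90aa1* and 0.00815 for *Eif2ak3*, and the interaction -0.055 for *Hsp90aa1*. Without the libraries numbered 1, CGRP in IAIE gave 0.0592 for *Atf4*, 0.126 for *Hsp90aa1* and 0.167 for *Eif2ak3*, CGRP in CD11c -0.0268 for *Hspa5*, -0.106 for *Xbp1*, -0.246 for *Hspa1a* and 0.0474 for *Hsph1*, and the interaction -0.157 for *Hsp90aa1*. Upper-quartile scaling gave -0.0186 for *Xbp1* and -0.0231 for *Hspa1a* in CD11c, the replicate block -0.0531 and the summed counts -0.0413 for *Hspa1a* there. The surrogate variable gave 0.0065 for *Ddit3* in IAIE and 0.0893 for *Hsph1* in CD11c. Limma-voom gave 0.0372 for *Hsph1* in CD11c, 0.0221 for *Hsp90aa1* in IAIE and -0.025 for its interaction, where the replicate block within treatment gave -0.00451.

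With 1 library left out, CGRP in IAIE ranged from -0.12 to 0.18 for *Ddit3*, -0.10 to 0.059 for *Atf4*, -0.14 to 0.68 for *Hspa1a*, -0.040 to 0.76 for *Hspa1b*, -0.15 to 0.19 for *Hsp90aa1* and -0.23 to 0.11 for *Eif2ak3*. In CD11c the ranges were -0.0064 to 0.12 for *Hspa5*, -0.089 to 0.13 for *Xbp1*, -0.40 to 0.23 for *Hspa1a*, -0.51 to 0.12 for *Hspa1b*, -0.20 to 0.17 for *Hsph1* and -0.16 to 0.0032 for *Hsp90aa1*. The interaction ranged from -0.66 to 0.16 for *Hspa1a*, -0.024 to 0.62 for *Dnajb1* and -0.24 to 0.11 for *Hsp90aa1*. The subset difference ranged from -0.25 to 0.11 for *Ddit3* in control and -0.21 to 0.079 for *Dnajb1* after CGRP.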

Other observations

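Among 12 mitochondrial chaperones and proteases, 2 rose with CGRP in each subset and none fell, with median log2 changes of 0.23 in IAIE and 0.21 in CD11c. In each subset this is 16.7% of the list, beside 9.21% of all genes in IAIE and 10.9% in CD11c. *Afg3l2*, a protease of the inner membrane, rose in IAIE from 55.9 ± 2.21 to 100.4 ± 2.65 CPM (mean ± SD, n = 3; log2 change 0.85 ± 0.17, edgeR adjusted p = 0.00246). *Lonp1*, the protease of the matrix, rose in CD11c from 57.5 ± 7.08 to 103 ± 14.5 CPM (0.85 ± 0.15, edgeR adjusted p = 0.000908). The others called were *Grpel1* in IAIE and *Afg3l2* in CD11c, and each of these calls was lost in several alternatives. Between the subsets, 1 of the 12 passed in control (8.33%, beside 21.2% of all genes), and after CGRP edgeR called 0, with 4 at an unadjusted p under 0.05, DESeq2 1 and limma-voom 2.

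Over the 12 libraries, which share groups, depth and composition, the genes whose log2 CPM ran most like each of the 10 were taken as a description. *Hspa1a* and *Hspa1b* were each other's closest (Pearson r = 0.994), as genes that share reads can be. *Gadd45g*, a stress-inducible growth arrest gene, was next for both (0.960 and 0.961) and the closest gene to *Hsph1* (0.966). *E2f6* was the closest to *Hsp90aa1* (0.978), *Gorasp2*, a Golgi stacking protein, to *Hsp90b1* (0.968) and *Diaph3* to *Hspa5* (0.954). The closest to *Ddit3* was *Timm13* at 0.869, to *Dnajb1* *Tmem135* at 0.890, to *Atf4* *Tpra1* at 0.955 and to *Xbp1* *H4c3* at 0.956.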
